A study of Mus musculus with 4 samples.

Results

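The 10 genes described here code for the core of the glutathione and thioredoxin systems, with the transcription factor that drives many of them. They are Slc7a11, Gclc, Gclm, Gsr, Gpx1, Gpx4, Txn1, Txnrd1, Prdx1 and Nfe2l2. They were chosen by name, and all 10 were found by gene identifier among the 50600 genes in the files. RNA-seq was performed on primary T cells of C57BL/6NJ mice. The 4 libraries form 1 group and carry replicate numbers 1 to 4. Per the file headers the cells were Th0, activated, 16 h, where Th0 usually means helper cells activated without polarising cytokines. Sex was not collected and age is unknown. The 4 biosamples share a donor identifier, and nothing states that they came from separate animals, so p-values here measure only the spread between these samples, which may be technical. No conditions could be compared. The questions were at which level each redox gene was expressed, how the partners of each pathway stood to each other, and how closely the libraries matched.

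Cells hold their cytosol reduced with a pair of thiol systems that both draw electrons from NADPH. In the glutathione branch, imported cystine supplies cysteine, glutamate-cysteine ligase and glutathione synthetase build glutathione, glutathione peroxidases spend it on peroxides, and glutathione reductase restores it. In the thioredoxin branch, thioredoxin reductase keeps thioredoxin reduced, and thioredoxin in turn serves peroxiredoxins and ribonucleotide reductase. NRF2, the product of Nfe2l2, is held low by KEAP1 and, when released, activates genes of both branches through antioxidant response elements. Activated T cells are known to need glutathione for growth and proliferation.

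Of the 10 members 3 carry an in-frame TGA that is read as selenocysteine, the catalytic residue of these enzymes, and the codon is shown because it sets what these genes need to be translated. They are Gpx1, Gpx4 and Txnrd1, per the GENCODE M21 annotation. The coding bases around that codon are shown from the GENCODE M21 transcripts on mm10, with the selenocysteine codon in capitals.
Gpx1 (chr9:108339451-108339453, plus strand): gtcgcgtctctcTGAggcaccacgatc
Gpx4 (chr10:80054737-80054739, plus strand): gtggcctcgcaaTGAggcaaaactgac
Txnrd1 (chr10:82896037-82896039, plus strand): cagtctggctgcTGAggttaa
In the longest Gpx1 transcript with the codon it is number 47 of 201 and in the longest Gpx4 transcript number 129 of 253. In the longest Txnrd1 transcript it is number 612 of 613, so that a single codon separates it from the final stop. Thus 154 codons follow it in Gpx1, 124 in Gpx4 and 1 in Txnrd1.

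The promoters were searched for the core of the antioxidant response element, TGACNNNGC, on both strands (GCNNNGTCA as read from the other strand), because NRF2 is a member and its known targets are too. RefSeq promoter windows on GRCm38.p6 (300 bases, from 250 before to 50 after each start) were given for 8 of the 10 members, all but Gclc and Gsr. A match lay in 4 of their 13 windows, in Nfe2l2, Gclm, Prdx1 and 1 of 3 windows of Txnrd1, whereas 12.4% of all 32851 windows held one. The matches are shown with their flanks as read along each gene's strand, the 9 matching bases in capitals.
Nfe2l2 (window chr2:75704614-75704913, minus strand): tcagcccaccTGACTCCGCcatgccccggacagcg
Gclm (window chr3:122245307-122245606, plus strand): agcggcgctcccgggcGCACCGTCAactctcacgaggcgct
Prdx1 (window chr4:116685349-116685648, plus strand): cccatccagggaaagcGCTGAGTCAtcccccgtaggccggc
Txnrd1 (window chr10:82858956-82859255, plus strand): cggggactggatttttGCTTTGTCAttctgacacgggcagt
The first matching base lay at -240, -134, -133 and -92 from the RefSeq start, in that order. In Prdx1 the match overlaps TGAGTCA, the letters of an AP-1 site, which on both strands lie in 5.2% of all windows and in no other member window. A match of letters describes the sequence and is not evidence of binding.

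The libraries held 46192242 to 63313389 counted read pairs. All 6 T cell markers (Cd3e, Cd3d, Cd3g, Trac, Cd4 and Cd5) reached 1 TPM throughout (TPM are read pairs per exonic base, rescaled to the same total in each library), with a summed level of 4513 to 4692 TPM. Of the 2 CD8 markers, which summed to 54.2 to 62.2 TPM, Cd8b1 was detected and Cd8a lay between 0.225 and 1.06 TPM. Markers of other cell types were low. No B cell marker reached 1 TPM in every library (0 of 5), with sums of 9.36, 6.37, 6.61 and 2.45 TPM in replicates 1 to 4. Of 5 macrophage markers 1 did (Cd68), with sums of 1.94 to 6.17 TPM and Fcgr1 at 0. The globin genes Hba-a1, Hba-a2 and Hbb-bs and all 4 neutrophil markers had no count, and the sums stayed at or below 0.681 TPM for 6 erythroid, 0.132 TPM for 3 NK cell and 1.66 TPM for 4 stromal and epithelial markers. In RNA from many cells together, fewer cells of a type and less RNA per cell cannot be told apart.

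Of the 10 redox genes 9 were expressed at 25 TPM or more in every library, and Slc7a11 was almost silent. By mean level the order was Txn1, Gpx1, Prdx1, Txnrd1, Gsr, Gpx4, Gclc, Nfe2l2, Gclm and Slc7a11, and the ranges of neighbours in this order did not overlap, except that Gsr and Gpx4 changed places when the longest coding transcript, chosen after the data were seen, was used as gene length. Levels are compared between genes per length throughout. At the usual floor of 1 TPM in every library 9 of 10 were detected, while 45.2% of the 21751 nuclear protein-coding genes were. With the deposited gene lengths the 10 genes summed to 2458 ± 69.2 TPM (SD, n = 4), of which Txn1 supplied 39.9 ± 1.42%. This share depends on the length used, as Txn1 fell to 705 TPM with the longest coding transcripts. The 10 genes took 0.157%, 0.158%, 0.161% and 0.148% of the read pairs of replicates 1 to 4. For replicate 4 the 95% Wilson interval, 0.1471 to 0.1494%, lay below those of the others. Intervals cover counting error only.

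**Figure D1:**
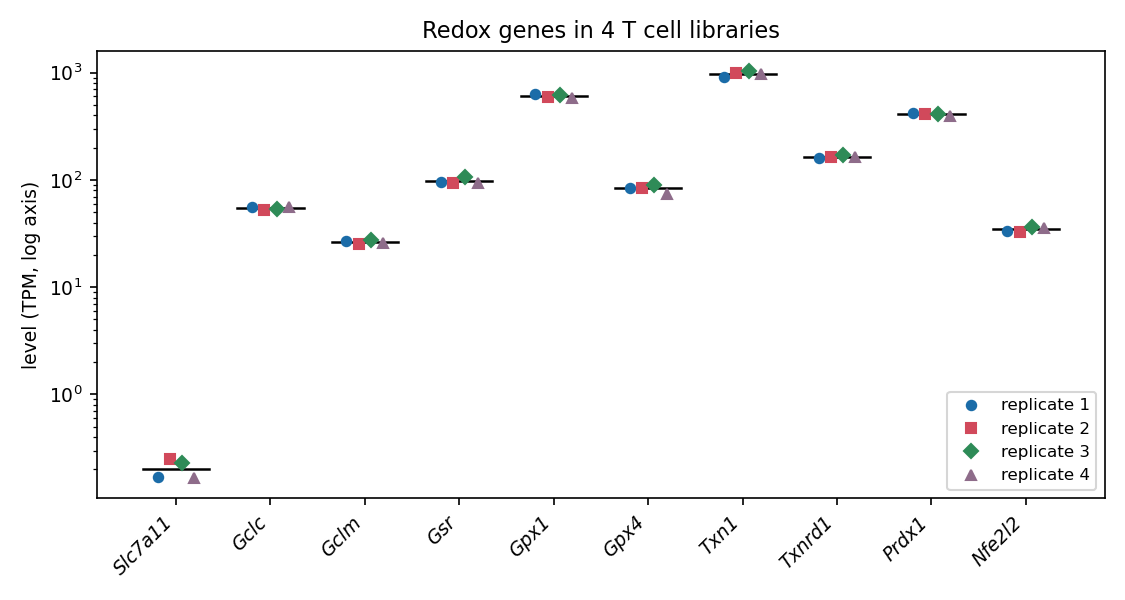
Level of each redox gene in TPM (log axis) in the 4 T cell libraries. Each symbol is 1 library and each bar the mean of 4. Txn1 lies at the top near 981 TPM, the other expressed genes lie between 26.4 and 605 TPM, and Slc7a11 lies alone at 0.203 TPM.

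Among the members, the gene for cystine import came first in the pathway and was lowest in transcript level. Slc7a11 (ENSMUSG00000027737.10, chromosome 3, 49892526 to 50443614, minus strand) codes for the light chain of the cystine-glutamate antiporter. It had 38, 51, 60 and 31 read pairs in replicates 1 to 4, that is 0.169, 0.248, 0.229 and 0.166 TPM. The exact 95% Poisson intervals of these levels ran from 0.113 to 0.326 TPM over the 4 libraries and all overlapped. Overlap of intervals is not a test of difference. The edgeR spread test described below gave Slc7a11 an unadjusted p of 0.6955, so no excess spread between libraries was detected at this depth. Even so low a level stood above 48.4% of nuclear protein-coding genes. A stretch of 373 bases in the untranslated part of its longest transcript matched alpha-tubulin genes at 95% identity or more in the opposite orientation, and the counting was strand-specific.

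The partner chain of the same transporter was abundant. Slc3a2 codes for the heavy chain that Slc7a11 shares with other amino acid transporters, and it lay at 221, 230.1, 231 and 239 TPM. It exceeded Slc7a11 in 4 of 4 libraries, by 7.59 ± 0.0673 on the log2(TPM + 1) scale. This was 1 of 8 pairs fixed for comparison. Each of the 8 had an exact two-sided sign-flip permutation p of 0.125, the smallest that 4 libraries allow, and a Benjamini-Hochberg adjusted value of 0.125, and 0.05 was out of reach. The log scale with a pseudocount understates a gene as low as Slc7a11, and the plain ratio of TPM was 1171 ± 242.

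Other routes to cysteine were represented unevenly. Of the 9 genes in the cystine and cysteine supply list 5 were detected. Slc1a5 and Slc1a4, which code for the neutral amino acid exchangers ASCT2 and ASCT1, lay at 459 ± 20.5 and 21.8 ± 2.46 TPM. Cbs and Cth, the enzymes that make cysteine from homocysteine, lay at 2.14 ± 0.365 and 1.89 ± 0.489 TPM. Slc7a9 and Slc1a1, another cystine carrier and the transporter EAAT3, had no count in any library, which allows up to 0.0474 to 0.0649 CPM, depending on the library (CPM are counts scaled to a common library size, and the limit is 3 counts). At a floor of 5 TPM the 5 detected genes became 3.

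The subunits of glutamate-cysteine ligase, the rate-limiting enzyme of glutathione synthesis, were both expressed, the catalytic one at about double the level of the other. Gclc, the catalytic subunit (ENSMUSG00000032350.9, chromosome 9, 77754535 to 77794485, plus strand), lay at 56.1, 52.5, 53.3 and 56.4 TPM. Gclm, the modifier subunit (ENSMUSG00000028124.15, chromosome 3, 122245557 to 122270732, plus strand), lay at 26.7, 25.4, 27.5 and 26.0 TPM. The ranges did not overlap, and the ratio of Gclc to Gclm was 2.10, 2.07, 1.94 and 2.17. Gclc was higher in 4 of 4 libraries, by 1.02 ± 0.0666 on the log2(TPM + 1) scale (exact sign-flip permutation p = 0.125). Gclm shares 244 of its 6291 exonic bases with Gm6061 on the same strand, and pairs that fall on both are assigned to neither by default.

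The later steps of glutathione handling were represented at uneven levels. The list of synthesis, reduction, turnover and export had a median of 6.36 TPM, and 10 of its 13 genes were detected. Gss, glutathione synthetase, which completes the molecule, lay at 14.7 ± 0.468 TPM, and Abcc1, an exporter of glutathione and its conjugates, at 43.2 ± 2.72 TPM. Chac2, one of the enzymes that degrade glutathione inside cells, lay between 10.3 and 11.4 TPM and Ggt7, a member of the gamma-glutamyltransferase family, at 6.36 ± 1.03 TPM. Ggt1, the classical surface enzyme that breaks down exported glutathione, lay between 0.0156 and 0.397 TPM.

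Gsr, the reductase that regenerates glutathione with NADPH (ENSMUSG00000031584.16, chromosome 8, 33652523 to 33698163, plus strand), lay at 96.4, 93.1, 105.5 and 93.6 TPM. Replicate 3 was the highest and the other libraries lay within a few TPM of each other. Txnrd1, its counterpart in the thioredoxin branch, was higher in 4 of 4 libraries, by 0.756 ± 0.0611 on the log2(TPM + 1) scale (exact sign-flip permutation p = 0.125). With coding transcript lengths this difference became 1.67.

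Of the 8 glutathione peroxidase genes only Gpx1 and Gpx4 were detected. Gpx1, the abundant peroxidase of hydrogen peroxide (ENSMUSG00000063856.7, chromosome 9, 108338903 to 108340343, plus strand), lay at 627, 599.8, 616 and 577 TPM. Gpx4, the peroxidase that reduces lipid peroxides in membranes and guards against ferroptosis (ENSMUSG00000075706.10, chromosome 10, 80047166 to 80056439, plus strand), lay at 83.8, 84.6, 90.6 and 74.7 TPM. Both were lowest in replicate 4. Gpx1 exceeded Gpx4 in every library, with a ratio of 7.27 ± 0.412, and the difference of Gpx4 from Gpx1 was -2.85 ± 0.0807 on the log2(TPM + 1) scale (exact sign-flip permutation p = 0.125). Of the longest Gpx4 transcript 73.7% matched the pseudogene Gpx4-ps2 at 95% identity or more, and Gpx4-ps2 itself had 16 to 48 read pairs per library. Read pairs that fit both places may have been lost, so the level of Gpx4 is uncertain. Gpx7 lay at 0.801 ± 0.0875 TPM, and Gpx2, Gpx5 and Gpx8 had no count.

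Genes that use glutathione for conjugation and protein repair were partly present. Of 23 glutathione transferases 9 were detected. Gstp1, the pi-class enzyme, which has a near-identical copy in Gstp2 and is uncertain for that reason, lay between 297.7 and 302.5 TPM, with Gsto1 at 82.7 ± 3.95 TPM, Gstz1 at 31.7 ± 2.6 TPM and Gstm4 at 13.3 ± 1.42 TPM, and 7 members, among them Gsta1 and Gsta2, had no count. All 6 glutaredoxin and glyoxalase genes were detected. The mitochondrial Glrx5, which serves iron-sulfur cluster assembly, lay at 261 ± 11.1 TPM and the cytosolic Glrx3 at 73.6 ± 1.31 TPM. Glo1 and Hagh, the glyoxalases that clear methylglyoxal with glutathione, lay at 68.3 ± 3.39 and 39.3 ± 3.16 TPM.

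Thioredoxin was the most abundant member. Txn1, the cytosolic thioredoxin (ENSMUSG00000028367.5, chromosome 4, 57943373 to 57956411, minus strand), lay at 916, 1003, 1035 and 969 TPM, which placed it between rank 108 and rank 125 among the 21751 nuclear protein-coding genes. Replicate 1 was the lowest. Its reductase Txnrd1 (ENSMUSG00000020250.10, chromosome 10, 82833951 to 82897712, plus strand) lay at 162, 165, 169 and 163 TPM. Txn1 exceeded Txnrd1 in 4 of 4 libraries, by 2.57 ± 0.0507 on the log2(TPM + 1) scale (exact sign-flip permutation p = 0.125), a TPM ratio of 5.96 ± 0.207. The merged exons of Txnrd1 span 7086 bases and its longest coding transcript 3622, and with coding transcript lengths this difference became 1.60.

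Cytosolic thioredoxin and its reductase stood above their mitochondrial paralogues. Txn2, the mitochondrial thioredoxin, lay at 302.5, 306, 310 and 294 TPM, below Txn1 by a difference of 1.69 ± 0.0643 on the log2(TPM + 1) scale, which became 0.654 with coding transcript lengths. Txnrd2, the mitochondrial reductase, lay at 33.6 ± 1.69 TPM and Txnrd3 at 41.0 ± 2.72 TPM, and Txnrd1 exceeded Txnrd2 by 2.26 ± 0.0561 on the same scale. Both differences had the same direction in 4 of 4 libraries, with an exact sign-flip permutation p of 0.125 each. All 10 genes of the thioredoxin system list were detected and had a median of 109.7 TPM, among them Txnl1 at 212 ± 7.12 TPM, Txndc17 at 147 ± 9.13 TPM and Tmx1 at 72.4 ± 3.6 TPM. Txnip, the inhibitor that binds reduced thioredoxin, lay at 29.7, 27.9, 30.7 and 38.7 TPM.

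Prdx1, the cytosolic peroxiredoxin that passes electrons from thioredoxin to peroxides (ENSMUSG00000028691.12, chromosome 4, 116685544 to 116700822, plus strand), lay at 424, 411, 416 and 394 TPM. Replicate 4 was the lowest. Txn1 exceeded it by 1.11, 1.29, 1.31 and 1.30 on the log2(TPM + 1) scale (exact sign-flip permutation p = 0.125), with replicate 1 apart from the others. Among its paralogues the mitochondrial Prdx3 lay higher, at 480.5 ± 13.5 TPM, and Prdx2, Prdx6 and Prdx5 lay at 159.6 ± 9.38, 157 ± 8.87 and 114 ± 6.47 TPM. Srxn1, the sulfiredoxin that repairs overoxidised peroxiredoxins, lay at 1.43, 1.13, 0.884 and 1.56 TPM and was the 1 gene of 7 in its list not detected in every library. Parts of the coding transcripts of Txn1 (29.3%) and Prdx1 (26.0%) matched processed pseudogenes at 95% identity or more. Those pseudogenes had at most 4 read pairs per library for Txn-ps1 and at most 112 for Gm21399. Gm7204, another match of Prdx1, had at most 50. Read pairs that fit both a gene and its copy may have been lost. The levels of Txn1 and Prdx1 may therefore be uncertain by more than these counts.

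**Figure D2:**
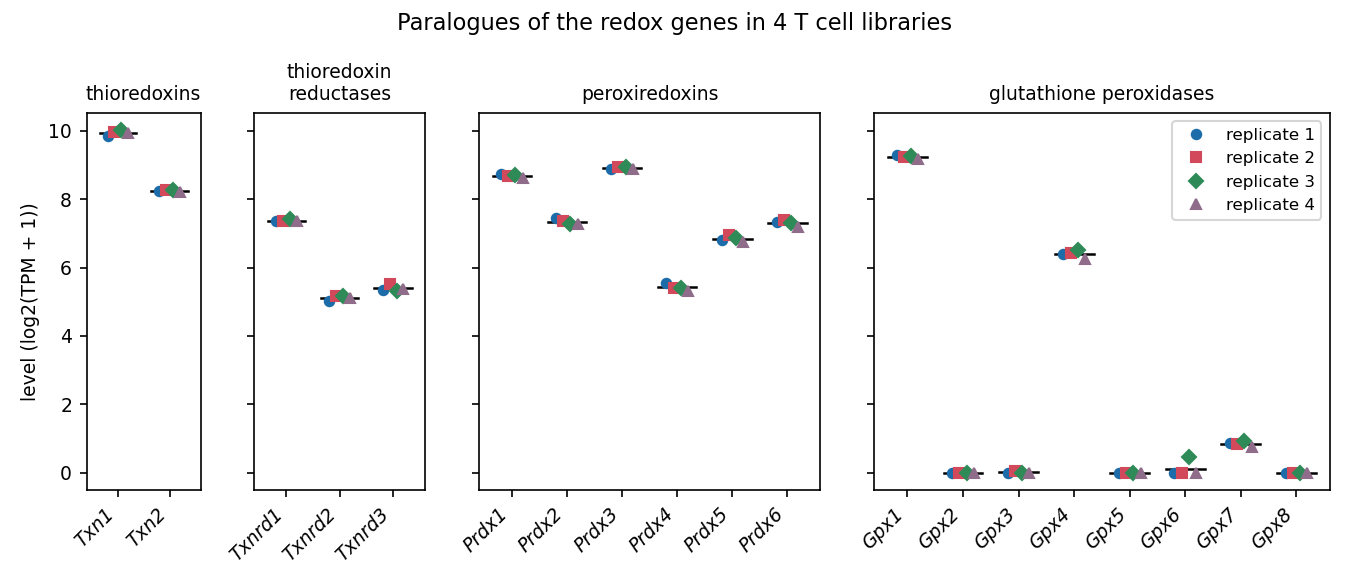
Levels of the paralogues in 4 enzyme families as log2(TPM + 1) in the 4 T cell libraries. Each symbol is 1 library and each bar the mean of 4. All thioredoxin, thioredoxin reductase and peroxiredoxin genes lie well above 0, whereas among 8 glutathione peroxidases only Gpx1 and Gpx4 do, with Gpx7 at a mean of 0.801 TPM.

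Selenocysteine, which Gpx1, Gpx4 and Txnrd1 need at the codons shown above, requires its own insertion machinery. The list had a median of 57.9 TPM and all 9 of its genes were detected. Sars, the seryl-tRNA synthetase that charges the selenocysteine tRNA first with serine, lay at 183 ± 4.28 TPM, and Sephs2, which makes the selenium donor, at 139 ± 3.37 TPM. Trnau1ap and the dedicated elongation factor gene Eefsec lay at 98.6 ± 3.91 and 85.0 ± 1.59 TPM. Of the 24 genes with an annotated selenocysteine codon 17 were detected, the 3 members among them. In the list of other selenoproteins the 4 highest were Selenow at 409.8 ± 29.1 TPM, Selenoh at 151 ± 13.9 TPM, Selenot at 131 ± 4.07 TPM and Selenos at 115 ± 8.48 TPM.

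Nfe2l2 was expressed at a modest level beside more abundant regulators. Nfe2l2 (ENSMUSG00000015839.6, chromosome 2, 75675513 to 75704641, minus strand) lay at 33.6, 32.9, 36.1 and 35.6 TPM. Keap1, the adaptor that marks NRF2 for degradation, lay at 72.2, 84.4, 78.1 and 81.5 TPM, above Nfe2l2 in every library and with no overlap. Cul3, the ligase scaffold that KEAP1 works with, lay at 122 ± 4.77 TPM, and Sqstm1, which can sequester KEAP1, at 157 ± 8.12 TPM. The related factor gene Nfe2l1 lay at 119 ± 4.62 TPM, and of the repressor genes of the same DNA element Bach2 lay at 179 ± 14.5 TPM and Bach1 at 5.92 ± 0.661 TPM. In this list 12 of 14 genes were detected.

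The other known NRF2 targets spanned a wide range of levels. Of 16 such genes 10 were detected. Nqo1, the quinone reductase often read as the marker of NRF2 activity, lay at 0.639, 1.31, 0.273 and 0.671 TPM, and Hmox1, heme oxygenase, at 4.25, 2.59, 6.45 and 5.49 TPM. Me1 and Osgin1 lay at 0.0178 ± 0.026 and 0.141 ± 0.107 TPM. Abcc1, which is also in this list, lay at 43.2 ± 2.72 TPM. At the top the ferritin genes Fth1 and Ftl1 lay at 1042 ± 29.0 and 605 ± 18.6 TPM, and the pentose phosphate genes Tkt and Taldo1 at 421 ± 13.8 and 204 ± 6.91 TPM. The members that are textbook targets of NRF2 also spanned a wide range, though a narrower one. It ran from Slc7a11 at 0.203 TPM through Gclm at 26.4 and Gclc at 54.6 TPM to Txn1 at 981 TPM. Of the superoxide dismutase and catalase list 4 of 5 genes were detected, with Sod1 between 874 and 1032 TPM, Sod2 at 75.1 ± 1.06 TPM, Ccs, the copper chaperone of Sod1, at 73.6 ± 2.94 TPM and Cat at 67.3 ± 4.3 TPM.

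**Figure D3:**
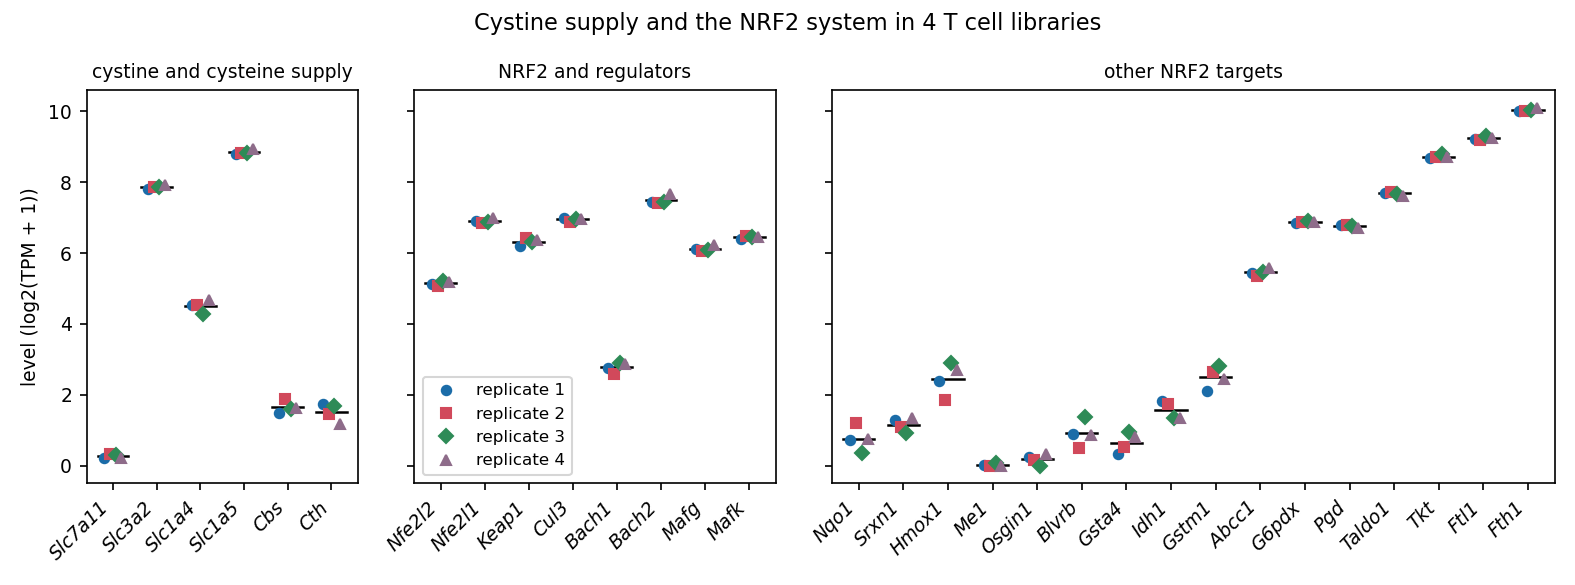
Levels of cystine and cysteine supply genes, NRF2 with its regulators and 16 other known NRF2 targets, as log2(TPM + 1) in the 4 T cell libraries. Each symbol is 1 library and each bar the mean of 4. Slc7a11 lies near 0 beside Slc3a2 at a mean of 230.2 TPM, and the targets run from Me1 at a mean of 0.0178 TPM through Abcc1 at 43.2 TPM to Fth1 at 1042 TPM.

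None of the 10 genes passed the spread test (adjusted p under 0.05 by edgeR's quasi-likelihood fit), which asks whether a gene varied more between libraries than genes of like abundance, and which 28 of 12285 genes or 0.228% passed. At an unadjusted p under 0.05 there were 0 of 10 members and 666 or 5.42% of all tested genes, and DESeq2 called 0 of 10 members and 68 or 0.554% of all tested genes as dispersion outliers. With 10 genes, counts of 0 are near these backgrounds and say nothing particular about the members. The lowest adjusted p was that of Gpx4, at 0.972 (edgeR). A p that misses the threshold does not show that the libraries were alike. The SD of log2 CPM had a median of 0.0683 over the members and of 0.102 over all tested genes. Limited to genes that averaged at least 1 TPM, the medians were 0.0655 for 9 members and 0.0949 for 11366 genes. For these 9 members the SD ran from 0.0399 (Txnrd1) to 0.132 (Gpx4). Such medians make no allowance for abundance. Against edgeR's abundance trend the members lay on both sides, with dispersion ratios from 0.287 (Gclc) to 2.30 (Gpx4). Gsr, Txn1 and Gpx1 also lay above the trend, and the other members below it. The coefficient of variation of TPM was 2.09% for Txnrd1, 3.62% for Gpx1 and 7.86% for Gpx4, where counting error alone would give 0.743%, 0.861% and 2.13%. For Slc7a11 it was 20.4%, where counting error alone would give 15.4%.

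Most members were lowest in replicate 4 on the log2 CPM scale. This held for 7 of 10, all but Gclc, Txn1 and Nfe2l2, whereas 29.1% of all tested genes were lowest there. The count depends on the scale. In TPM, Slc7a11, Gpx1, Gpx4 and Prdx1 were still lowest in replicate 4. Gclm (25.39 TPM) and Gsr (93.05 TPM) were then lowest in replicate 2, and Txnrd1 (161.7 TPM) in replicate 1. Replicate 3 was the highest for 6 of 10 members and for 23.8% of all tested genes. Gpx4 deviated most among the 9 expressed members, by -0.188 from its mean in replicate 4 and by 0.122 in replicate 3. The summed B cell markers were also lowest in replicate 4, at 2.45 TPM against 6.37 to 9.36 TPM, and their part in this was not tested. Across the pathway lists 92 of 132 genes were detected and 99 were tested for spread, of which 0 passed over all genes tested (edgeR) and 4 or 4.04% had an unadjusted p under 0.05, beside 5.42% of all tested genes.

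**Figure D4:**
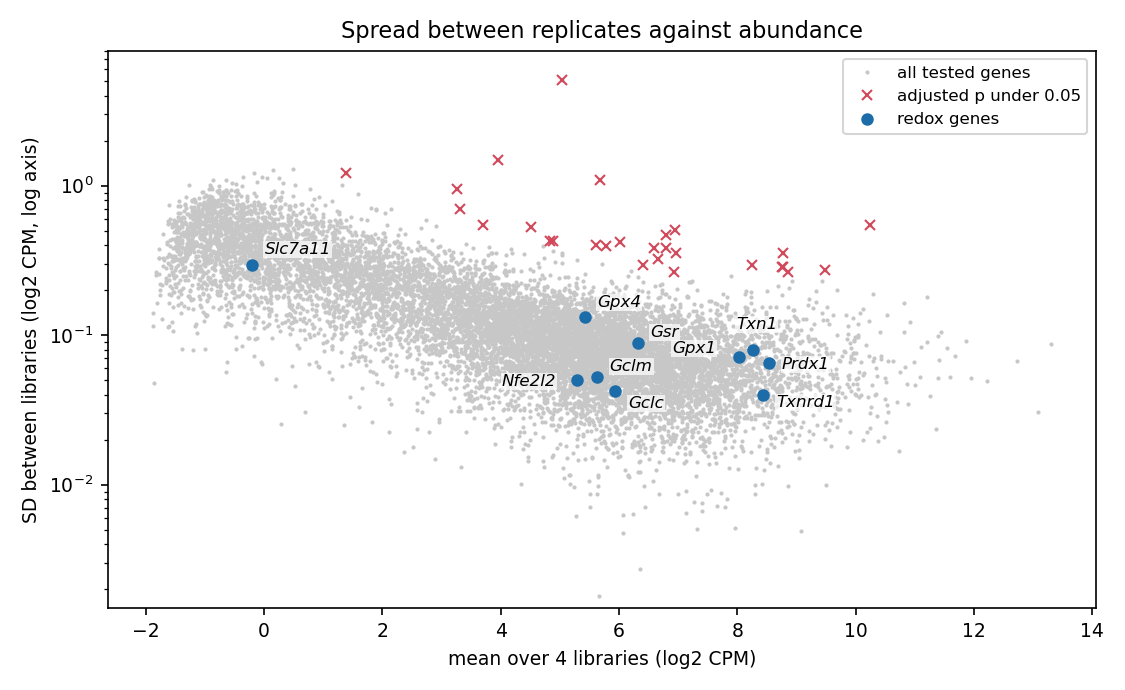
SD between the 4 libraries (log2 CPM, log axis) against mean abundance (log2 CPM) for 12285 tested genes. Grey dots are genes, red crosses the 28 genes past the spread threshold and blue circles the 10 redox genes, which lie within the grey cloud at SDs from 0.0399 to 0.297.

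The genes closest to each member in level were taken from all nuclear protein-coding genes by the root mean square difference of log2(TPM + 1) over the 4 libraries. Nfe2l2 had the closest neighbour among the members described here, the phosphatase gene Ptpn9 at 34.6 ± 1.52 TPM with a difference of 0.00829, followed by Stag1 (0.0262). Next to Gclc lay Crebzf (0.0149) and Pi4ka (0.0251), and next to Gclm lay Cbx3 (0.0204) and Pdcd10 (0.0246). Gpx1 was nearest to the replication helicase gene Mcm6 (0.0282) and to Npm3 (0.0433), and Gsr to Ranbp9 (0.0243) and Tmem11 (0.0273). Txn1 had Stip1 (0.0576) and Rpl10a (0.0592), Txnrd1 had Golph3 (0.0172) and Sgta (0.0231), and Prdx1 had the proteasome gene Psmd7 (0.0239) and Tomm22 (0.0301). Closest to Slc7a11 were Dnah17 (0.0233) and Gfpt2 (0.0353), genes at 0.189 ± 0.0314 and 0.214 ± 0.0704 TPM. At so low a level the pseudocount shrinks differences, so these 2 values do not compare with those of the other members. In replicate 2, Gfpt2 lay at 0.302 TPM and Slc7a11 at 0.248 TPM. Likeness over 4 libraries of 1 group is mostly likeness in level.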

How the data were processed

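RNA was measured in 4 T cell libraries of 1 group. Each deposited file holds unnormalized counts, in read pairs, of every gene. Per the file headers they came from featureCounts 1.4.6-p4, run over exons and summed by gene (strand setting 2, both mates required, GENCODE M13) from STAR alignments. The sources used here do not give the STAR version. Per the labels, mm10 was the genome. Whether total or polyA+ RNA was sequenced was not settled, as the labels name both. No option for pairs that map to several places was recorded, so genes with near-identical copies are uncertain.

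TPM were computed from counts and the deposited merged exonic length. Symbols came from GENCODE M21, which matched 50376 of 50600 identifiers. The spread between replicates was tested across 12285 genes with edgeR 4.0.16 in R 4.3.3 (filterByExpr, TMM, intercept only, robust quasi-likelihood fit) by comparing a gene's residual quasi-dispersion with the abundance trend (F distribution), adjusted by Benjamini-Hochberg at 0.05. The procedure was tested on counts simulated from the dispersion trend fitted to these data, which the test itself assumes. Within-library differences used log2(TPM + 1) and an exact sign-flip permutation test, two-sided, for 8 pairs. Size factors and dispersion outliers from DESeq2 1.42.0 served as alternatives. Log2 CPM used a prior count of 2. Near copies were sought with blastn 2.17.0 among GENCODE M21 transcripts, at 95% identity or more over 100 bases or more. Limits for a count of 0 use 3 counts. Amino acid sequences were not analysed here.

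A rule chose the genes named: the members, the 4 highest of each list and any past the spread threshold, fixed partners, and the 2 nearest genes of each member, which for Gpx4 are not reported here. Others are named for their role in the pathway, after their values were seen. The members and lists were chosen with earlier results of these data known. Alternatives covered scaling, filters, fits, pseudocounts, floors, gene length and each replicate left out.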

Additional observations from a re-analysis of the deposited data

Results flagged for a closer look

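Of 68 sets of 4 values examined (members, other named genes and within-library differences), 5 had a library set far apart from the other 3. Chance flags about 1 in 20 such sets where the values vary continuously, whereas a gene counted in only 1 library is always flagged. The difference of Txn1 from Prdx1 was 1.11 on the log2(TPM + 1) scale in replicate 1, against 1.29 to 1.31 in the others. Bach2 lay at 200.3 TPM in replicate 4, against 169.6 to 173 TPM in the others, and Sod2 at 73.5 TPM in replicate 4, against 75.4 to 75.7 TPM. Gpx3 lay at 0.0373 TPM in replicate 2 and Gpx6 at 0.374 TPM in replicate 3, and both had no count in the other 3 libraries. These values rest on 1 and 9 read pairs, so both flags were fixed in advance. No member's own level was set apart in this way.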

How the results depend on the processing

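None of the 10 members passed the spread test under any alternative run, and the lowest adjusted p of a member was 0.908 (Gpx4). The count over all genes, 28, became 142 with no filter beyond a count in 1 library, 15 with a non-robust fit and 68 by DESeq2 dispersion outliers, and ran from 14 (without replicate 3) to 27 when 1 replicate was left out. The median level of the members, 90.3 TPM, ran from 87.7 to 95.9 TPM, and 9 of 10 were detected at floors of 0.5, 1 and 5 TPM. Single levels were less steady. With TPM over protein-coding genes only, 8 members moved by their SD between libraries or more, and 8 did so with the longest coding transcript length. With any 1 replicate left out, all 10 stayed within that SD. All 8 within-library differences kept their direction under each alternative. With the longest coding transcript as gene length, chosen after seeing the data, Gpx4 (104 TPM) stood above Gsr (72.0 TPM), opposite to the order given, and Txn1 and Txnrd1 became 705 and 232 TPM. With pseudocounts of 0.1 and 5 the difference of Slc3a2 from Slc7a11 became 9.58 and 5.50. Depth limits Slc7a11, at 31 to 60 read pairs, more than any other member. No paired comparison between conditions was possible because the labels give a single group.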
